A study of Mus musculus with 20 samples.

Results

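The 10 genes described here encode the core of the circadian clock in mouse liver and subcutaneous adipose tissue (SAT). They were chosen by symbol: Arntl (also called Bmal1), Clock, Npas2, Per1, Per2, Per3, Cry1, Cry2, Nr1d1 and Nr1d2. All 10 were found among the 40440 gene entries kept from the count table, and all 10 passed the filter on low counts in every comparison. RNA came from male C57BL/6J mice with epididymal visceral adipose tissue removal, called VATR, or with a sham operation in which the abdomen was cut open and the fat pads stayed in place. Surgery was done at 8 to 9 months of age. All mice, sham included, ate regular chow until surgery and a high-fat diet after it, and were housed in 12 h of light and 12 h of dark. The 4 groups were VATR liver, sham liver, VATR SAT and sham SAT, with 5 libraries each and 20 in all. The sources used here give neither the hour of the day at which tissue was taken nor the length of the high-fat diet. Without that hour, a different level and a different phase of the daily cycle cannot be told apart for any gene below.

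The mammalian clock is a loop of transcription and repression with a period of about a day. The proteins of Arntl and Clock, or of Npas2 in place of Clock, form a pair that binds E-box sequences and switches on the Per and Cry genes, whose proteins then accumulate and block that pair. A further loop runs through Nr1d1 and Nr1d2, which encode the REV-ERB nuclear receptors: the Arntl and Clock pair drives them, and they repress Arntl, Npas2, Cry1 and other genes with ROR elements, on which the ROR receptors act as activators. In liver and fat the loop runs in nearly every cell and paces genes of lipid, glucose and bile acid metabolism, and feeding time is among its strongest cues.

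Sequence around the start sites is shown because the loops act through short elements in it. RefSeq promoter windows on GRCm38.p6, running from 250 bases before to 50 bases after a start site, matched 9 of the 10 genes in 13 windows, and Per2 was not matched. Each window was searched on both strands for the E-box CACGTG, the D-box TTATGTAA, the cAMP element TGACGTCA and the ROR element, and none of these motifs overlapped another. Matches are in capitals below, with flanking bases in lower case, 5′ to 3′ on the strand of the gene.
Per3 promoter, D-box, chr4:151044846-151044887, minus strand: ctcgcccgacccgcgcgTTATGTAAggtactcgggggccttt
Per3 promoter, D-box, chr4:151044799-151044840, minus strand: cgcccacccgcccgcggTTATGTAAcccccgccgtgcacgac
Arntl promoter, ROR element, chr7:113207528-113207556, plus strand: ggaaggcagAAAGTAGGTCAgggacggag
Cry1 promoter, E-box, chr10:85185092-85185131, minus strand: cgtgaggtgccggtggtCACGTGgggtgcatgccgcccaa
Per1 promoter, E-box, chr11:69098766-69098805, plus strand: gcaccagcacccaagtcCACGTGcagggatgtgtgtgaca

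The ROR element of Arntl began 27 bases after the start site, inside the transcribed part of the window. Only 0.384% of 32851 promoter windows of the same length held such an element. The D-box, bound by the output factors DBP, TEF and HLF, was present in 0.938% of windows and stood at 2 places in that of Per3. The E-box was more common, at 7.15% of windows, and was found for Cry1 and Per1 among the members. The cAMP element was present in 1.79% of windows and in none of the 13 member windows. A match describes the letters in the window and says nothing of binding in these mice.

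By GENCODE M21 on GRCm38, the activator genes lie on chromosome 7 from 113207465 to 113314126 (Arntl, plus strand), chromosome 5 from 76209868 to 76304792 (Clock, minus strand) and chromosome 1 from 39193731 to 39363236 (Npas2, plus strand). Per1 lies on chromosome 11 from 69095217 to 69109960 (plus strand), Per2 on chromosome 1 from 91415982 to 91459324 and Per3 on chromosome 4 from 151003652 to 151044665 (both minus strand). Cry1 lies on chromosome 10 from 85131700 to 85185064, Cry2 on chromosome 2 from 92403646 to 92434043, Nr1d1 on chromosome 11 from 98767932 to 98775333 and Nr1d2 on chromosome 14 from 18204054 to 18239127, all on the minus strand. The table gives a single count per gene and library, so isoforms of a member were not separated.

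Total counts ran from 20307159 to 43618452 per library. Npas2 was the least abundant member, with 16 to 112 counts per liver library and 36 to 297 per SAT library, a Poisson error of 25% at 16 counts and 5.8% at 297. The other members had at least 62 counts in every library. Levels are in CPM, counts scaled to library size by the TMM method. Every library carried the marker of its tissue: the hepatocyte gene Alb ranged from 32450 to 53530 CPM in liver and from 3.73 to 31.1 CPM in SAT, and the adipocyte gene Adipoq was at most 0.351 CPM in liver and ranged from 981 to 2354 CPM in SAT. In SAT, the summed level of 8 B and T lymphocyte genes was 7.79 to 11.9 CPM in the VATR libraries, against 571 and 579 CPM in sham libraries 3 and 4 and 8.28 to 10.9 CPM in the other sham libraries. Summed skeletal muscle genes ranged from 27.8 to 22870 CPM in VATR SAT and from 13.5 to 1854 CPM in sham SAT, highest in library 2 of each. Summed interferon response genes were at most 94.2 CPM in VATR livers, against 898 CPM in sham liver library 5 and at most 177 CPM in the other sham livers. In SAT their sum was at most 79.0 CPM in VATR, against 287 CPM in sham library 5 and at most 95.5 CPM in the other sham libraries. The labels do not say that libraries of a group came from separate mice, so p-values measure the spread between these libraries, which may be technical. In whole tissue, fewer cells of a type and less RNA per cell cannot be told apart.

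Sham library 2 stood apart from the other sham libraries in the clock genes of both tissues, and differences between VATR and sham within a tissue that moved by more than 1.5 times without it are given both ways. In sham liver its members deviated from the group median by 0.649 on the log2 scale (median over the 10 genes), against 0.143 over all genes tested. In sham SAT the same measure was 0.677 for library 2, against 0.168 over all genes. Among the other 18 libraries this measure reached at most 0.442, in sham SAT library 1. Sham liver library 2 had the highest or lowest value of its group for 7 of the 10 genes, and sham SAT library 2 for 8. The count was 6 in sham liver library 1 and sham SAT library 1. It was also 6 in VATR liver libraries 2, 3 and 4 and in VATR SAT library 2. Counts of genes at an end were given no test. Of the 7 genes at an end of the group in library 2 of both tissues, 5 were at the same end: Cry1, Cry2 and Per2 were highest and Npas2 and Nr1d1 lowest in library 2 of both. Arntl was the highest of its group in sham liver library 2 and the lowest in sham SAT library 2, and Nr1d2 was the lowest in liver and the highest in SAT. The sources used here do not say whether libraries with equal numbers come from 1 mouse.

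**Figure D1:**
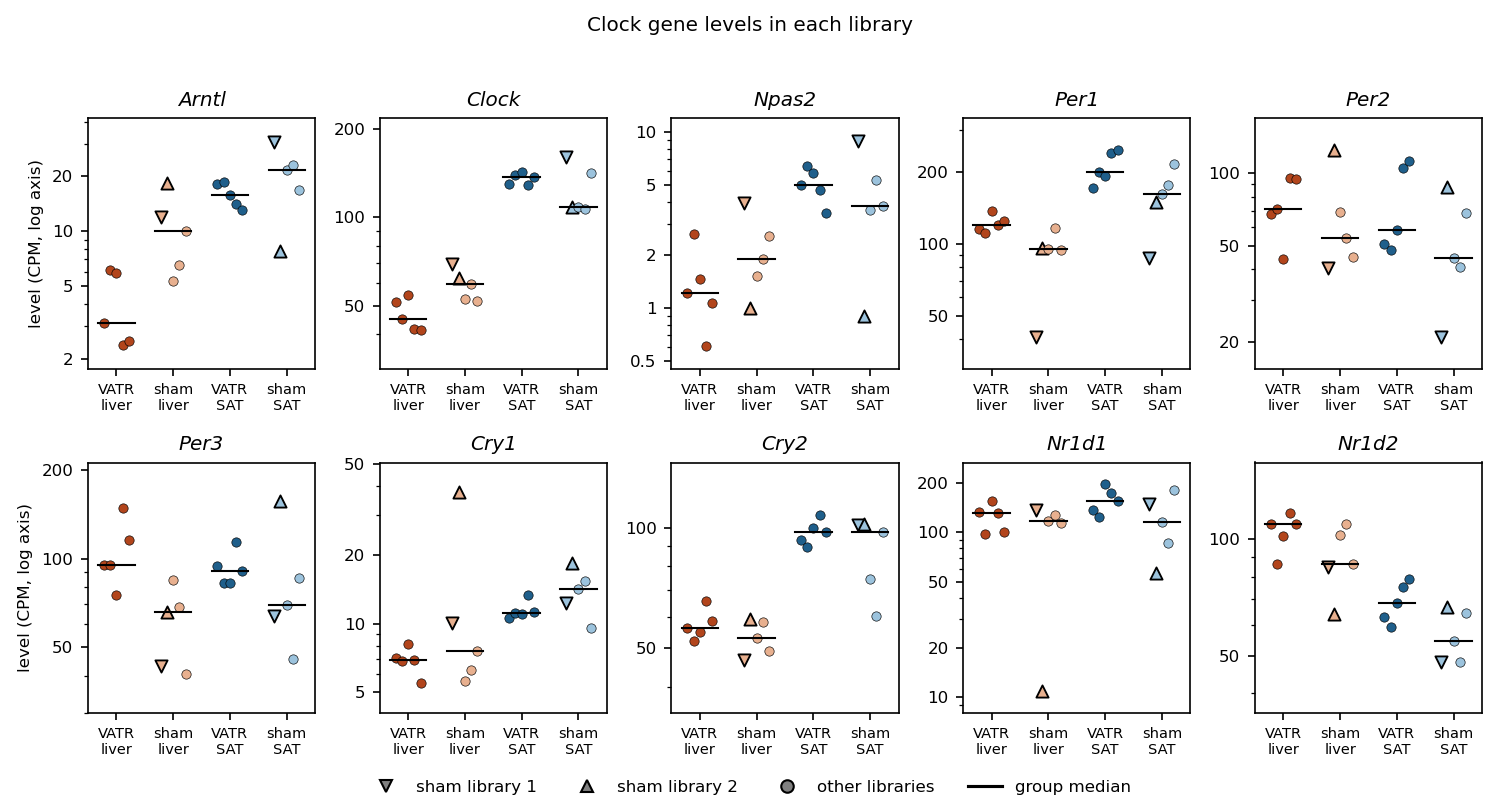
Level of each clock gene in CPM (log axis) in the 5 libraries of VATR liver, sham liver, VATR SAT and sham SAT; horizontal lines are group medians, and triangles mark sham libraries 1 and 2. Nr1d1 at 10.9 CPM and Cry1 at 37.7 CPM in sham liver library 2 and Npas2 at 0.901 CPM in sham SAT library 2 lie away from the rest of their groups.

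The question in liver was whether removal of visceral fat was followed by another level of the clock genes than the sham operation. No gene of the 17078 tested passed an adjusted p of 0.05 in edgeR's quasi-likelihood test (0% called), so 0 of the 10 members passed. At an unadjusted p under 0.05 there were 3 members, Arntl, Clock and Per3, against 9.9% of all genes. The activator genes Arntl and Clock averaged less, and Per3 more, in VATR liver. The median log2 difference over the 10 members was 0.14, against 0.01 over all genes.

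Arntl, the usual partner of CLOCK and NPAS2 in the activator pair, had 3.13, 6.13, 5.90, 2.38 and 2.49 CPM in VATR livers, against 11.9, 18.4, 5.35, 6.53 and 10.1 CPM in sham livers (libraries 1 to 5). All 5 VATR livers lay below the sham mean, but the groups overlapped, since sham library 3 lay below VATR libraries 2 and 3. The log2 difference was -1.39 ± 0.39 (SE, adjusted p = 0.309), and -1.09 ± 0.35 without sham library 2. Clock, the histone acetyltransferase partner of Arntl, had 51.4, 45.1, 54.3, 41.5 and 41.3 CPM in VATR livers and 69.4, 62.1, 52.9, 59.2 and 52.0 CPM in sham livers. Here too every VATR liver lay below the sham mean, and only VATR library 3 reached into the sham range. The log2 difference was -0.34 ± 0.10 (adjusted p = 0.317). Npas2, the stand-in for Clock, averaged 1.40 ± 0.757 CPM in VATR livers and 2.19 ± 1.13 CPM in sham livers (SD, n = 5 each), a log2 difference of -0.63 ± 0.42 (adjusted p = 0.663).

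Per3, a Period gene that is not required for rhythm in mice, had 95.3, 95.1, 75.3, 148 and 116 CPM in VATR livers, against 43.3, 65.9, 84.5, 68.7 and 40.5 CPM in sham livers. All VATR livers stood above the sham mean, and VATR library 3 was the only one of them inside the sham range. The log2 difference was 0.81 ± 0.23 (adjusted p = 0.309), and 0.84 ± 0.26 without sham library 2. Per1, the Period gene that responds fastest to light and hormone cues, had 115, 111, 137, 119.8 and 125 CPM in VATR livers and 40.7, 96.3, 95.0, 117 and 94.6 CPM in sham livers. Sham library 1 was far below the rest, and the other sham values lay closer to those of VATR (log2 difference 0.46 ± 0.22, adjusted p = 0.535). Per2, the Period gene with the strongest loss-of-rhythm phenotype, averaged 74.7 ± 21.5 CPM in VATR livers and 66.7 ± 34.4 CPM in sham livers (SD, n = 5 each). Its highest value, 125 CPM, was in sham library 2, and the log2 difference was 0.16 ± 0.32 with that library and 0.52 ± 0.24 without it (adjusted p = 0.914 and 0.564).

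Cry1, the strongest repressor of the activator pair, had 7.09, 6.85, 8.16, 6.91 and 5.50 CPM in VATR livers and 10.1, 37.7, 5.63, 6.24 and 7.56 CPM in sham livers. Library 2 set the sham mean: the log2 difference was -0.97 ± 0.51 (adjusted p = 0.569) with it and -0.10 ± 0.18 (adjusted p = 0.904) without it, and 0.08 ± 0.16 without sham libraries 1 and 2. Cry2, its paralog, stayed between 46.7 and 65.8 CPM in all 10 livers (log2 difference 0.11 ± 0.09, adjusted p = 0.716). Nr1d1 had 133, 97.0, 155, 132 and 101 CPM in VATR livers, against 137, 10.9, 117, 127 and 114 CPM in sham livers. The 1 low sham library carried the whole difference in means: the log2 difference was 0.29 ± 0.49 with it and -0.01 ± 0.14 without it (adjusted p = 0.894 and 0.998). Nr1d2, the other REV-ERB gene, ranged from 86.4 to 117 CPM in VATR livers and from 63.9 to 109 CPM in sham livers (log2 difference 0.23 ± 0.14, adjusted p = 0.616), and the difference was 0.13 ± 0.11 without sham library 2.

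All 10 members had overlapping VATR and sham ranges in liver, where 2.44% of all genes tested did not overlap. Without sham library 2 all 10 still overlapped, against 3.73% of genes without overlap, and again 3 members had an unadjusted p under 0.05, against 9.05% of genes. As that library was singled out by the members themselves, the share of all genes is no like baseline for this count. Without sham library 2 the median over the members was 0.06. DESeq2 called Arntl (adjusted p = 0.0233) and Per3 (adjusted p = 0.0432) in liver, where it called 1.29% of genes, and limma-voom called no member, with 0.0176% of genes called.

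**Figure D2:**
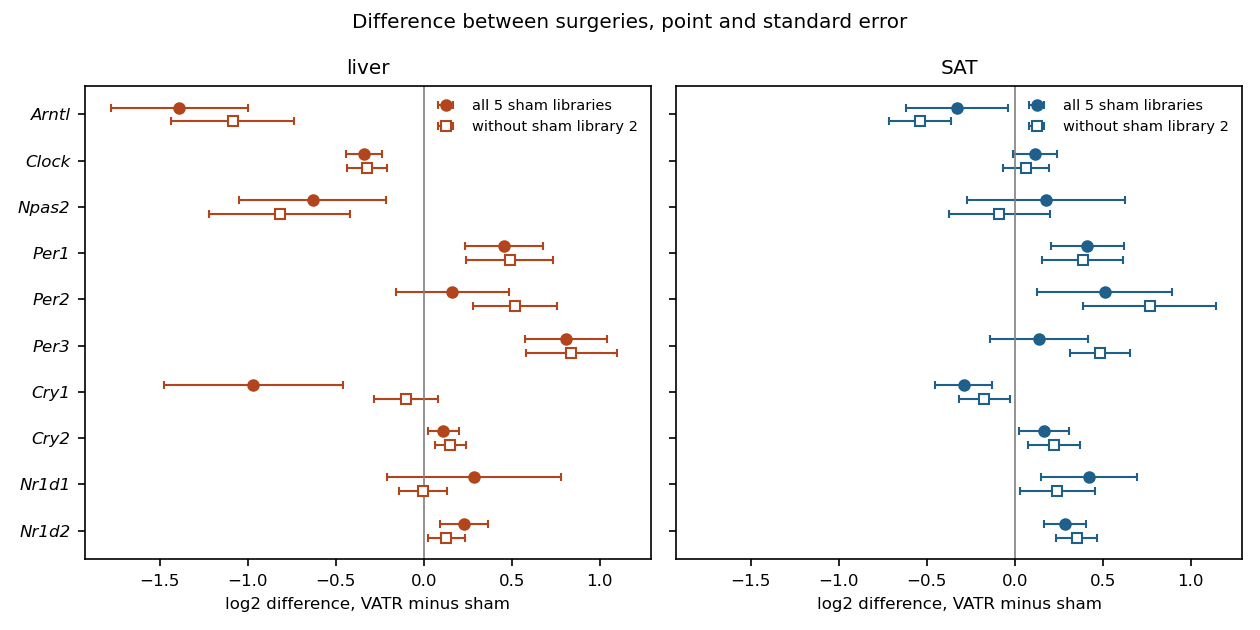
Log2 difference, VATR minus sham, of each clock gene in liver (left) and SAT (right), with standard errors from edgeR; filled points use all 5 sham libraries and open squares leave out sham library 2. In liver the point of Cry1 moves to -0.10 and that of Nr1d1 to -0.01 without that library, while Arntl is at -1.09 and Per3 at 0.84.

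The same question was asked in SAT, the fat depot that the surgery left in place. None of the 18530 genes tested passed (0% called), so 0 of 10 members did. Nr1d2 alone had an unadjusted p under 0.05, against 10.6% of all genes. The median over the members was 0.17 on the log2 scale, against 0.00 over all genes, and 8 of the 10 differences were positive, against 49.7% of all genes. That count was 7 without sham library 2 and 5 without sham libraries 3 and 4.

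Nr1d2 had 62.9, 59.1, 68.2, 75.3 and 78.7 CPM in VATR SAT, against 48.1, 66.9, 54.6, 48.2 and 64.4 CPM in sham SAT. All 5 VATR libraries lay above the sham mean, with 2 of them inside the sham range. The log2 difference was 0.29 ± 0.12 (adjusted p = 0.444). Nr1d1 had 136, 124, 196, 173 and 155 CPM in VATR SAT and 149, 57.0, 115, 86.0 and 180.0 CPM in sham SAT. Every VATR library was above the sham mean here as well, and sham library 2 was the lowest of all 10. The log2 difference was 0.42 ± 0.27 with it and 0.24 ± 0.21 without it (adjusted p = 0.589 and 0.596).

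Arntl had 18.2, 18.7, 15.8, 14.2 and 13.1 CPM in VATR SAT, against 30.9, 7.81, 21.8, 23.2 and 16.8 CPM in sham SAT. Sham library 2 was the lowest of the 10 values and sham library 1 the highest, with the VATR libraries between them. The log2 difference was -0.33 ± 0.29 (adjusted p = 0.705), and -0.54 ± 0.18 without sham library 2 (adjusted p = 0.261). Clock averaged 136 ± 6.25 CPM in VATR SAT and 125 ± 24.7 CPM in sham SAT (SD, n = 5 each), a log2 difference of 0.11 ± 0.12 (adjusted p = 0.774). The Clock difference was 0.06 ± 0.13 without sham library 2, and its sign turned, to -0.02 ± 0.11, without sham libraries 3 and 4, which carried lymphocyte genes. Npas2 had 4.95, 6.42, 5.86, 4.65 and 3.47 CPM in VATR SAT and 8.80, 0.901, 3.60, 5.35 and 3.77 CPM in sham SAT. Both ends of its range were sham libraries, and the log2 difference was 0.18 ± 0.45 with library 2 and -0.09 ± 0.29 without it (adjusted p = 0.919 and 0.901).

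Per1 had 171, 199.9, 192, 239.6 and 247 CPM in VATR SAT, against 86.9, 149.8, 162, 177 and 214 CPM in sham SAT. As in liver, all VATR libraries lay above the sham mean and sham library 1 was the lowest (log2 difference 0.41 ± 0.21, adjusted p = 0.506). Per3 had 94.2, 82.6, 82.5, 114 and 91.0 CPM in VATR SAT and 63.8, 157, 69.5, 45.5 and 85.9 CPM in sham SAT. The highest of the 10 values was sham library 2, and the log2 difference was 0.14 ± 0.28 with it and 0.48 ± 0.17 without it (adjusted p = 0.897 and 0.274). The sign of the Per3 difference turned without sham library 4 (-0.03 ± 0.25) and without libraries 3 and 4 (-0.14 ± 0.27). Per2 averaged 75.0 ± 31.4 CPM in VATR SAT and 52.6 ± 25.9 CPM in sham SAT (SD, n = 5 each), with a log2 difference of 0.51 ± 0.39 (adjusted p = 0.649), and 0.77 ± 0.38 without sham library 2 (adjusted p = 0.363). Cry1 averaged 11.4 ± 1.08 CPM in VATR SAT and 14.0 ± 3.35 CPM in sham SAT (log2 difference -0.29 ± 0.16, adjusted p = 0.532), and all 5 VATR libraries lay below the sham mean. Without sham library 2 the Cry1 difference was -0.17 ± 0.14. Cry2 averaged 97.5 ± 6.91 CPM in VATR SAT and 87.0 ± 18.8 CPM in sham SAT (log2 difference 0.16 ± 0.14, adjusted p = 0.702), with its lowest values, 60.1 and 74.6 CPM, in the sham libraries 4 and 3 that carried lymphocyte genes. The part of those genes in the difference was not tested, though without both libraries the Cry2 difference was -0.04.

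All 10 members overlapped between VATR SAT and sham SAT, where 1.45% of genes did not. Without sham library 2 all 10 again overlapped, against 3.27% of genes without overlap. Leaving it out gave 3 members with an unadjusted p under 0.05 (Arntl, Per3 and Nr1d2) against 15.1% of genes. The library was singled out by the values of these same members, so that count is no independent support for a difference. Neither DESeq2, which called 0.853% of genes in SAT, nor limma-voom, which called 0%, called a member there.

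The difference in response, SAT minus liver, asks whether surgery was followed by another shift of a gene in SAT than in liver. No member and none of the 19954 genes passed (0% called by edgeR and by limma-voom, 0.621% by DESeq2, with no member among them). At an unadjusted p under 0.05 there were 2 members, Arntl and Clock, against 10.1% of all genes. For Clock the difference was 0.45 ± 0.16 on the log2 scale (adjusted p = 0.368): all 5 VATR livers lay below the sham liver mean and all 5 VATR SAT libraries above the sham SAT mean. Those VATR SAT values, 128.8 to 143.3 CPM, all lay inside the sham SAT range of 106.6 to 161.1 CPM. Without sham SAT libraries 3 and 4, where the Clock difference in SAT turned to -0.02, the difference in response was 0.31 ± 0.16 (adjusted p = 0.787). For Arntl it was 1.05 ± 0.50 (adjusted p = 0.493), and 0.55 ± 0.41 without sham library 2 of either tissue. Per3 gave -0.68 ± 0.39 (adjusted p = 0.568), and -0.97 ± 0.37 without sham SAT libraries 3 and 4 (adjusted p = 0.699). Without sham library 2 of either tissue the Per3 value was -0.35 ± 0.33. Cry1 gave 0.67 ± 0.54 (adjusted p = 0.71), and its sign turned, to -0.07 ± 0.24, without those libraries. Per1 gave -0.05 ± 0.32 (adjusted p = 0.984). For the other 5 genes the difference lay between 0.05 and 0.81 with an adjusted p of at least 0.706, and between 0.08 and 0.73 without sham library 2 of either tissue. Arntl had the same sign in both tissues: it averaged 4.01 ± 1.86 CPM in VATR liver against 10.4 ± 5.16 CPM in sham liver, and 16.0 ± 2.42 CPM in VATR SAT against 20.1 ± 8.52 CPM in sham SAT (SD, n = 5 each).

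The spread between libraries was set side by side for the 2 surgeries. The SD of log2 CPM over the 5 libraries was smaller in VATR for 8 of 10 genes in liver and for 10 of 10 in SAT. The median SD over the members was 0.245 in VATR liver and 0.622 in sham liver, where all genes had medians of 0.248 and 0.234. In SAT it was 0.206 in VATR and 0.572 in sham, where all genes had 0.217 and 0.338. Sham library 2 carried much of this in liver, where leaving it out gave a sham median of 0.356 and a smaller VATR value for 6 of 10 genes. In SAT the sham median without it was 0.370, and 10 of 10 genes still had the smaller SD in VATR. These are counts over 10 linked genes and were given no test. The share of all genes with the smaller SD in VATR was not counted. In SAT the median SD of all genes was also smaller in VATR. Without that share, the count there cannot be called particular to the clock genes or common to all genes. The count of 10 of 10 in SAT stands beside the lymphocyte genes of sham libraries 3 and 4 and the muscle genes of several libraries, whose part in it was not tested.

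**Figure D3:**
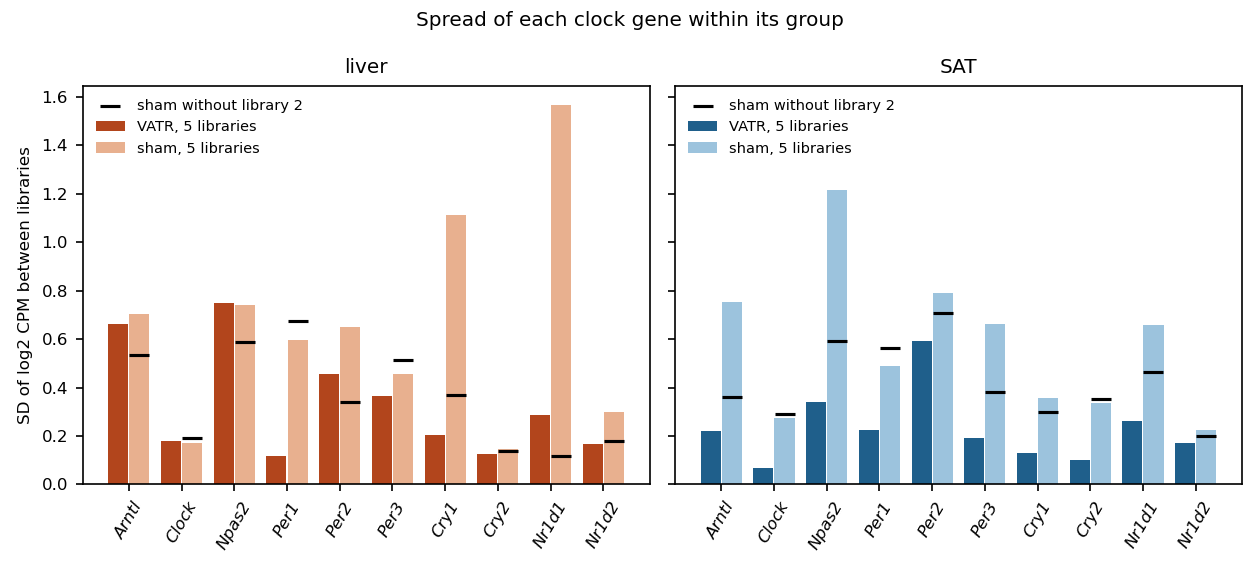
SD of log2 CPM of each clock gene over the 5 libraries of VATR (dark bars) and sham (light bars) in liver (left) and SAT (right); black dashes give the sham SD without library 2. The SD of Nr1d1 in sham liver was 1.57 with library 2 and 0.117 without it.

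Single genes show how far this reached. Nr1d1 had an SD of 0.286 in VATR liver and 1.57 in sham liver, and this sham SD was above that of 99.4% of the genes tested. Without library 2 its sham SD was 0.117, above 24.2% of genes. Sham liver library 2 held 0.0936 times the group median of Nr1d1 and 4.98 times that of Cry1. In SAT, sham library 2 held 0.242 times the group median of Npas2, 0.359 times that of Arntl and 2.26 times that of Per3. Sham library 1 was at an end of its group in both tissues for 4 genes, Clock, Npas2, Per1 and Per2, and at the same end each time: Per1 stood at 0.428 times the median in sham liver and 0.537 times in sham SAT, and Npas2 at 2.07 and 2.33 times. Per2 likewise was the lowest of its group in library 1 of sham liver and of sham SAT. The widest deviation among VATR livers was that of Npas2 in library 2, at 2.64 CPM against a group median of 1.21 CPM, and among VATR SAT libraries that of Per2 in library 5, at 113 CPM against 58.0 CPM.

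**Figure D4:**
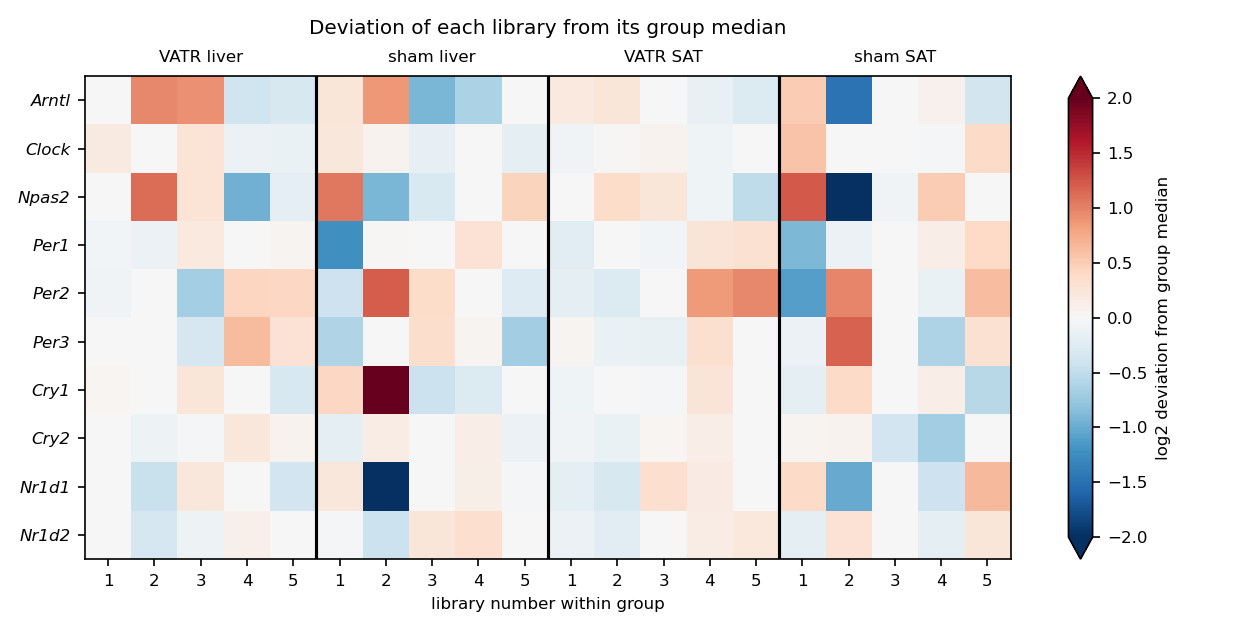
Log2 deviation of each clock gene (rows) in each library (columns) from the median of its group, in the order VATR liver, sham liver, VATR SAT and sham SAT; red is above and blue below the median, and colours end at 2 in both directions. Nr1d1 (-3.42) and Cry1 (2.32) in sham liver library 2 and Npas2 (-2.05) in sham SAT library 2 go past the ends of the scale.

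Tissue levels were compared in the sham groups, liver against SAT. Of the 10 members, 2 passed at an adjusted p of 0.05, against 65% of the 18449 genes tested. Nr1d2 was higher in liver, at 109 ± 22.7 CPM in sham liver against 46.6 ± 7.35 CPM in sham SAT (SD, n = 5 each, scaled over all 20 libraries), a log2 difference of 1.20 ± 0.16 (adjusted p = 5.61e-05). Clock was lower in liver, at 72.2 ± 8.87 CPM in sham liver against 104 ± 19.8 CPM in sham SAT, a log2 difference of -0.55 ± 0.14 (adjusted p = 0.00549). Both passed under all 22 alternatives. Per2 gave 0.88 ± 0.40 (adjusted p = 0.0753) and passed under 4 of the 22 alternatives: DESeq2, the replicate block, the fit of all 20 libraries, and without sham SAT library 2 (1.20 ± 0.40, adjusted p = 0.0237). Without sham liver library 2 it was 0.53 ± 0.36 (adjusted p = 0.223), and without both 0.81 ± 0.33 (adjusted p = 0.0553). Cry2 gave -0.17 ± 0.15 (adjusted p = 0.341), and passed without sham SAT libraries 3 and 4, at -0.40 ± 0.09 (adjusted p = 0.00328). Arntl gave -0.41 ± 0.39 (adjusted p = 0.375), and without sham library 2 of both tissues it was -0.90 ± 0.28 and passed (adjusted p = 0.018). Cry1 gave 0.48 ± 0.50 with those libraries and -0.25 ± 0.22 without them. The median over the members was -0.06, against -0.11 over all genes.

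Levels between genes can be set side by side per kilobase of exon, with exon lengths from GENCODE M21 on GRCm38. Nr1d1 was the highest member in all 4 groups, at 48.5 ± 8.80 CPM per kb in VATR liver, 40.2 ± 20.4 in sham liver, 41.7 ± 7.74 in VATR SAT and 31.5 ± 13.0 in sham SAT (SD, n = 5 each). Npas2 was the lowest in all 4, between 0.354 CPM per kb in VATR liver and 0.866 CPM per kb in VATR SAT, and Arntl came next above it, between 0.644 and 2.21 CPM per kb. In sham liver the order from high to low was Nr1d1, Nr1d2, Per1, Per2, Cry2, Per3, Clock, Cry1, Arntl and Npas2. Arntl at 1.69 ± 0.822 CPM per kb and Npas2 at 0.557 ± 0.288 CPM per kb were the only neighbours in that order farther apart than their SDs together, and all other neighbours, such as Nr1d2 at 20.2 ± 4.21 CPM per kb and Per1 at 19.2 ± 6.26 CPM per kb, did not differ beyond their spread. In sham SAT, Cry2 at 11.4 ± 2.42 CPM per kb came after Nr1d1 and Per1, ahead of Nr1d2 at 8.62 ± 1.36 CPM per kb. Nr1d1 shares 263 exonic bases, 8.55% of its exon length, with Thra on the opposite strand, and Thra averaged 23.2 CPM in liver and 110.0 CPM in SAT. Cry2 shares 4.67% of its exon length with a transcript on the other strand that averaged 2.26 CPM in liver and 2.88 CPM in SAT. The sources used here do not name the strand setting of the counts, so reads in these stretches cannot be told apart.

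How the members varied together was described against Arntl over the 10 libraries of a tissue, after each group's mean was taken away. In all, 18 relations were computed, with two-sided exact permutation p over the 14400 pairings within groups, adjusted over the 18. Nr1d2, which represses Arntl, ran opposite to it in both tissues. In liver Pearson's r was -0.891 (adjusted exact permutation p = 0.0075) and Spearman's rho -0.891 (adjusted exact permutation p = 0.0171), with r = -0.819 without VATR liver library 2 and sham liver library 2, which lay farthest from the Arntl median. In SAT r was -0.830 and rho -0.927, each with an exact permutation p of 6.94e-05, the smallest these pairings can give (adjusted 0.00125), and r was -0.980 without sham SAT libraries 1 and 2.

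In SAT, Npas2 ran with Arntl (r = 0.966, rho = 0.867, adjusted exact permutation p = 0.0075 and 0.0191), with r = 0.719 without sham libraries 1 and 2. Per2 ran opposite (r = -0.849, rho = -0.818, adjusted exact permutation p = 0.012 and 0.0171), with r = -0.944 without those libraries. Per3 gave r = -0.858 and rho = -0.818 (adjusted exact permutation p = 0.1 and 0.0387). Its r was -0.634 without sham libraries 1 and 2, and -0.483 without sham library 2 alone. In liver, Cry1 ran with Arntl by r (0.722, adjusted exact permutation p = 0.00969) and not by rho (0.600, adjusted exact permutation p = 0.203), with r = 0.848 without VATR library 2 and sham library 2. The other 12 relations did not pass by either measure. Several of them turned on the libraries farthest out: r of Per2 in liver was -0.083 over 10 libraries and -0.968 over 8, that of Nr1d1 in liver -0.519 and 0.624, and that of Nr1d1 in SAT 0.524 and -0.763.

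**Figure D5:**
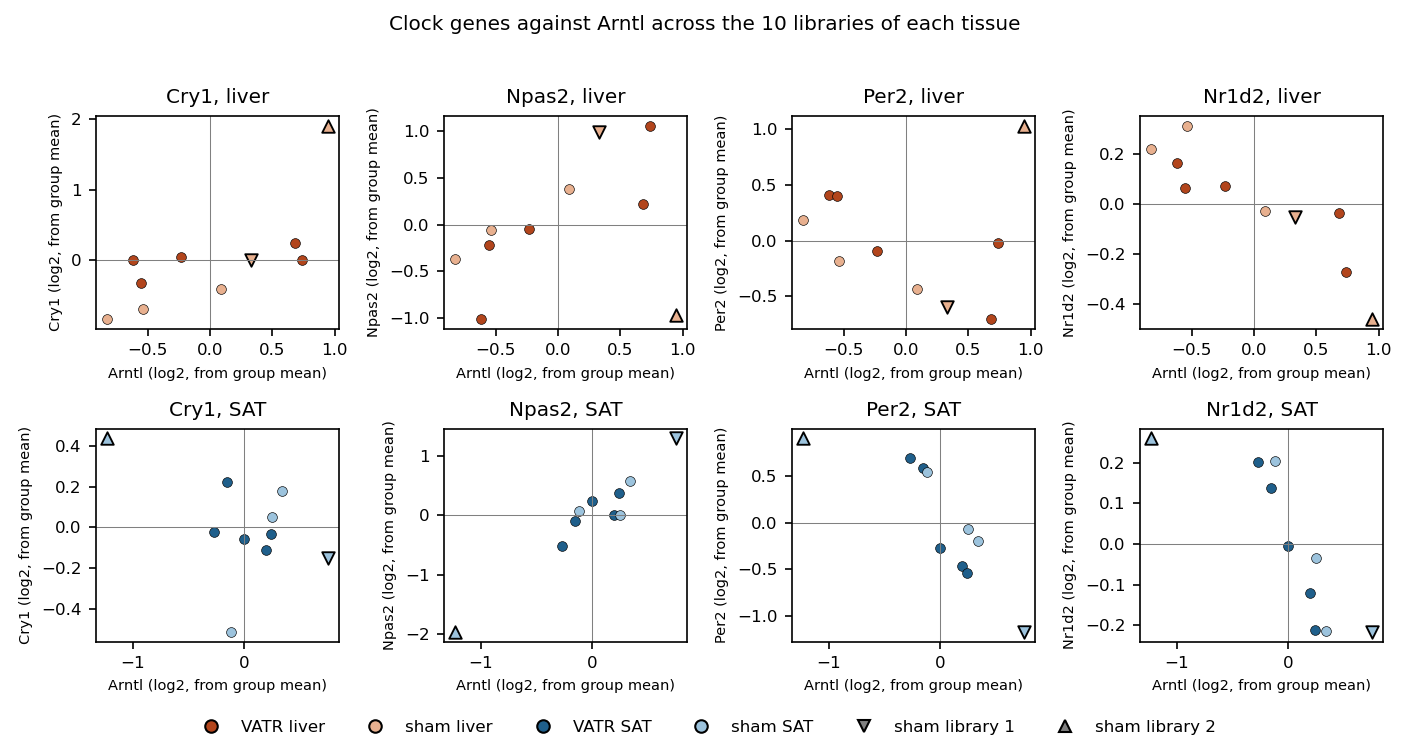
Log2 CPM of Cry1, Npas2, Per2 and Nr1d2 against that of Arntl, each as the distance from its group mean, in the 10 liver libraries (top) and the 10 SAT libraries (bottom); triangles mark sham libraries 1 and 2. Nr1d2 runs downward against Arntl in both tissues (r = -0.891 in liver and -0.830 in SAT), while in liver sham library 2 stands alone at the top right for Cry1 and Per2.

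The genes whose pattern was most like that of Arntl were ranked by r over the same 10 libraries, among genes of at least 1 CPM on average. All share the libraries, their depth and their scaling. Out of 13607 genes in SAT, Npas2 ranked second from the top (r = 0.966), after Adamts4 (r = 0.976), with Tpcn2, Avpr1a, Rfxank and Ubald2 following (r of at least 0.917). At the other end were Hps5 (r = -0.980), Pgls, Cpeb2, BC017158, Fmo2 and Dbp (r = -0.902), the last of which encodes a D-box factor of the clock's output. Per3, Per2 and Nr1d2 ranked 14, 20 and 32 from that end. Out of 12586 genes in liver, the highest were Agap1 (r = 0.953), Insc, Crtc3, Top3b, Mecom and Ncbp2, and the lowest were Pdcd6ip (r = -0.950), Bid, Pold2, Tbc1d15, Ppp2r2d and B4galnt1, with Nr1d2 ranking 9 from the bottom and Cry1 208 from the top. Without sham library 2 the SAT list had Per2 second from the bottom (r = -0.967) and Eif2a at the top, and the liver list had Npas2 at rank 12 from the top (r = 0.890) and Smagp at the top. In SAT, Per3 then ranked only 1264 from the bottom (r = -0.483) and Npas2 27 from the top (r = 0.859). Nr1d2 ranked 26 from the bottom in SAT and 45 in liver without that library, and Cry1 263 from the top in liver.

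Other genes of the clock were counted from lists. Of 15 clock output genes tested in liver, 12 had higher and 3 lower means in VATR than in sham, against 52.2% of all genes higher; none passed, and the median log2 difference was 0.30. The smallest p were those of Tef, a D-box factor (0.43 ± 0.15, adjusted p = 0.375), Por, the electron donor of cytochromes P450 (0.68 ± 0.30, adjusted p = 0.488), Alas1, which makes the first haem precursor (0.66 ± 0.29, adjusted p = 0.494), and Dbp (0.79 ± 0.38, adjusted p = 0.54). At an unadjusted p under 0.05 there were 3 output genes, against 9.9% of all genes, and 6 without sham library 2, against 9.05%. That library was picked for its clock gene values, so the count of 6 is no independent support for a difference. Dbp had 105.8, 83.5, 93.2, 130.5 and 97.3 CPM in VATR livers, against 52.9, 15.3, 95.3, 82.5 and 49.7 CPM in sham livers, with its lowest value in sham library 2, as for Nr1d1. In SAT 9 of the 15 were higher and 6 lower, the median was 0.03 and none passed, with 12 higher and 3 lower and a median of 0.09 without sham library 2. The smallest p were those of Nampt (-0.30 ± 0.21) and Dbp (0.33 ± 0.24), with Wee1 at 0.26 ± 0.31 and Bhlhe41 at 0.21 ± 0.30. In the difference in response 3 of the 15 were positive and none passed, with the smallest p for Alas1 (-0.81 ± 0.40), Por (-0.80 ± 0.41), Nfil3 (0.44 ± 0.35) and Tspan4 (-0.32 ± 0.30), all with an adjusted p of at least 0.51.

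Of 19 genes that modify or partner the clock proteins (kinases, ubiquitin ligases, ROR receptors and corepressors), 18 were tested in liver, with 10 higher and 8 lower in VATR, a median of 0.01 and none passing. The smallest p belonged to the ubiquitin ligase gene Fbxw11 (-0.16 ± 0.06), Rora (-0.16 ± 0.07), Timeless (0.24 ± 0.13) and the kinase gene Gsk3b (-0.15 ± 0.08), with adjusted p of at least 0.441. In SAT 12 of 19 were higher and 7 lower, with none passing. Lowest in p were Timeless (-0.47 ± 0.24), Csnk1e (0.18 ± 0.10), Fbxl21 (0.43 ± 0.23) and Prkaa2 (0.67 ± 0.49). All had an adjusted p of at least 0.498. Prkaa2 averaged 31.3 CPM in VATR SAT, where its highest value was 82.3 CPM. Its median there was 17.6 CPM, below the 20.4 CPM of sham SAT. In the difference in response none of the 19 passed, and the smallest p were those of Timeless (-0.72 ± 0.28), Nono (-0.17 ± 0.08), Prkaa2 (0.78 ± 0.51) and Rora (0.26 ± 0.18), with adjusted p of at least 0.401.

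Of 14 glucocorticoid and feeding state genes, whose levels follow the hormones and meals that set peripheral clocks, none passed in liver or SAT (14 and 12 tested). Irs2, which encodes an insulin receptor adaptor that falls after meals, had the smallest p in both, with 0.87 ± 0.19 in liver (adjusted p = 0.243, every VATR liver above every sham liver) and 0.53 ± 0.16 in SAT (adjusted p = 0.431). It averaged 51.4 ± 16.5 CPM in VATR liver and 28.1 ± 2.60 CPM in sham liver, and 146.5 ± 35.2 CPM in VATR SAT and 102 ± 10.5 CPM in sham SAT (SD, n = 5 each). Next in liver came Ppargc1a (0.29 ± 0.19), Cpt1a (0.20 ± 0.13) and Fgf21 (-0.46 ± 0.38). Those next in SAT were Fgf21 (0.82 ± 0.43) and Pdk4 (0.69 ± 0.46). Fgf21 was near the floor in SAT, at 1.14 ± 0.593 CPM in VATR and 0.641 ± 0.270 CPM in sham (SD, n = 5 each). In the difference in response none passed, with the smallest p for Fgf21 (1.28 ± 0.60), Pdk4 (0.92 ± 0.58), Irs2 (-0.35 ± 0.26) and Cpt1a (-0.29 ± 0.23). The part of feeding state in the clock gene values was not tested. Between the sham tissues, 9 of the 15 output genes, 12 of the 19 regulators and 12 of the 14 feeding state genes passed, against 2 of the 10 members and 65% of all genes tested, so the counts of output genes and regulators lay near the share of all genes.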

How the data were processed

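RNA depleted of ribosomal RNA was sequenced from 10 liver and 10 SAT samples. The submitters' processing notes name bcl2fastq, the aligner STAR (2.5.1a), featureCounts (1.46) of Subread and the build GRCm38; the sources used here name no annotation, strand setting or treatment of multiply mapped reads. Raw read counts per gene symbol were deposited by the authors in a single table of 40757 entries, of which 317 exact repeats were dropped. Groups came from sample titles. The members and lists were chosen with earlier results of these data known.

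Counts were tested in edgeR 4.0.16 (R 4.3.3; filterByExpr by group, TMM, robust quasi-likelihood F-test): each tissue alone, the difference in response in a fit of all 20 libraries, which treats them as separate mice, and the sham groups in a fit of their 10 libraries. P-values were adjusted by Benjamini and Hochberg over all genes tested (threshold 0.05), and the test was tried on simulated counts. Named genes were all members, the 4 smallest p of each listed pathway where none passed (counts where many did), and the 6 genes most and least like Arntl per tissue; a listed gene that this rule selects in SAT is not reported here. Leaving out sham library 2 of both tissues together was chosen after the data were seen. So was printing results without that library beside the main ones. Alternatives were DESeq2 1.42.0, limma-voom (limma 3.58.1), other scalings and filters, a replicate block and left-out libraries. Relations used scipy 1.17.1. Libraries held 20307159 to 43618452 counts, and counting error was largest for Npas2 (16 to 297 counts).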

Additional observations from a re-analysis of the deposited data

Results flagged for a closer look

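Of 40 combinations of a clock gene and a group of 5 libraries, 3 held a library far from the other 4, by the gap to its nearest neighbour over the range of the group. Chance gives about 1 in 20 such groups. In sham liver Nr1d1 was 10.93 CPM in library 2, below all others, and Per1 was 40.66 CPM in library 1, below all others. In VATR SAT Cry1 was 13.32 CPM in library 4, above all others. The 2 sham liver values recur in SAT as the lowest of their group, Nr1d1 at 57.0 CPM in sham SAT library 2 and Per1 at 86.9 CPM in sham SAT library 1.

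For Clock, every VATR SAT library lay above the sham SAT mean and every VATR liver below the sham liver mean. All VATR SAT values, 128.8 to 143.3 CPM, nevertheless lay inside the sham SAT range of 106.6 to 161.1 CPM. The difference in response, SAT minus liver, was 0.452 on the log2 scale and did not pass the test across all genes (adjusted p = 0.368 in edgeR). In SAT alone the Clock difference was 0.114 ± 0.124, and it turned to -0.018 without sham SAT libraries 3 and 4.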

How the results depend on the processing

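The surgery comparisons called no member under any alternative except DESeq2 in liver, which called 2. Relations to Arntl past the threshold numbered 5, and 8 without centring on group means. With number as a replicate block, liver, SAT and the difference in response had 0 members called and sham liver against SAT 3. Same-numbered liver and SAT libraries correlated at -0.173 to 0.104 in their deviations from group means. Only sham number 1 was above 0.1. Such correlations cannot decide whether equal numbers mark 1 mouse, as spread found in 1 tissue alone, such as the lymphocyte genes in SAT, enters them. The numbers were not taken as pairs because the sources used here do not say that they are. The median correlation was 0.06 for equal and -0.023 for unequal numbers in VATR, and -0.111 and 0.071 in sham. Of the livers, 3 of 5 VATR and 0 of 5 sham correlated best with their own number in SAT, and of the SAT libraries 4 of 5 VATR and 1 of 5 sham with their own number in liver. Signs turned as follows, among them Cry1, whose differences with all libraries were -0.969 in liver, 0.666 in the difference in response and 0.476 between sham tissues. In liver without sham libraries 1 and 2, Cry1 was 0.085. In SAT without sham libraries 3 and 4, Clock was -0.018, Per3 -0.143 and Cry2 -0.041. In the difference in response, Nr1d1 was -0.178 in limma-voom and -0.124 with the replicate block; without sham SAT libraries 3 and 4, Per1 was 0.008, Cry2 -0.169, Nr1d1 -0.014 and Nr1d2 -0.047, and without sham library 2 of either tissue Cry1 was -0.069. Between sham tissues, Per3 was -0.048 with upper quartile scaling and -0.252 without sham SAT libraries 3 and 4, and Cry1 was -0.248 without sham library 2 of either tissue. Leaving out 1 library at a time gave -0.005 to 0.417 for Nr1d1 in liver, and in SAT -0.088 to 0.57 for Npas2 and -0.027 to 0.484 for Per3. In the difference in response it gave -0.204 to 0.134 for Per1, -0.013 to 0.604 for Per2, -0.192 to 0.861 for Cry1, -0.058 to 0.115 for Cry2, -0.036 to 0.429 for Nr1d1 and -0.036 to 0.157 for Nr1d2. Between sham tissues it gave -0.101 to 0.454 for Per3 and -0.377 to 0.68 for Cry1. The cause of these turns was not tested. With 5 libraries a group and the spread of the sham clock genes, a p that misses the threshold does not show equal levels.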
